A study of Homo sapiens with 12 samples.

Results

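The genes described here are 10 SOX transcription factors, chosen by name from the SRY-related HMG-box family, with earlier results of these data known. They are SOX2, SOX3, SOX4, SOX5, SOX6, SOX9, SOX11, SOX12, SOX13 and SOX18. All 10 were found by Ensembl identifier among the 60662 genes of the RNA count files, and 8 of them among the 12224 genes of the deposited translation efficiency table. The exceptions in that table were SOX3 and SOX11. After filtering on low values, 9 members were tested in RNA and 7 in ribosome footprints and in efficiency.

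The treated arm was HEK293T cells, an established human embryonic kidney line, labelled as wild type and given 20 µM STM2457 in 0.2% DMSO for 6 h. STM2457 inhibits METTL3, the catalytic subunit of the complex that writes N6-methyladenosine (m6A) into mRNA. The control arm was the same line, also labelled as wild type, given 0.2% DMSO alone for 6 h. Both arms received an additional 10% of fetal bovine serum in the last 1 h and 100 µg/ml cycloheximide, which stops elongating ribosomes, in the last 3 min. RNA-seq was run on 4 libraries per arm and ribosome profiling (Ribo-seq), which sequences the 26 to 34 nt mRNA fragments covered by ribosomes, on 2 libraries per arm. The series asks how translation changes when m6A is depleted. Whether the replicates came from separate cultures is not labelled, so a p-value here reflects library-to-library spread alone, and that spread can be technical.

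SOX proteins bind the minor groove of DNA through their HMG box and bend it, and they usually act together with a partner transcription factor. The SoxB1 members SOX2 and SOX3 maintain neural and pluripotent progenitors, and the SoxC members SOX4, SOX11 and SOX12 act in progenitors of the nervous system and other organs. The SoxD members SOX5, SOX6 and SOX13 lack a transactivation domain of their own and pair through a coiled coil. SOX9, of the SoxE group, drives cartilage, testis and kidney epithelial development, and SOX18, of the SoxF group, drives blood and lymphatic vessel development. SOX2, SOX3, SOX4, SOX11 and SOX12 are encoded by genes without introns. On many mRNAs, m6A is bound by YTH-domain readers that shorten the life of the transcript.

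RNA-seq files held 43291730 to 51645739 counts per STM2457 library and 45722380 to 51199272 per DMSO library, of which ERCC spike-in sequences, RNA added in known amounts, took 0.415% to 0.466% with STM2457 and 0.389% to 0.408% with DMSO. Recovered footprint reads numbered 4039314 and 3898620 in the STM2457 libraries and 4711513 and 3198063 in the DMSO libraries. Genes listed as typical of HEK293 cells (PAX2, LHX1, VIM, NEFL, NEFM, INA and CDH2) were all kept by the filter. Their summed level was 1098 to 1137 CPM (counts scaled to the effective library size) with STM2457 and 1046 to 1085 CPM with DMSO, so it was higher in every STM2457 library. Of the 7, 3 were higher (NEFL, NEFM and LHX1) and 1 lower (INA) at an edgeR adjusted p under 0.05. Over all genes tested, 26.2% were higher and 21.6% lower. With spike-in scaling 1 of the 7 was higher and 2 lower, and DESeq2 called 3 higher and 2 lower. The part of these marker genes in the SOX results was not tested. Summed levels of fibroblast markers (18.1 to 19.7 CPM with STM2457 and 17.5 to 22.0 with DMSO), epithelial carcinoma markers (6.22 to 7.59 and 6.79 to 7.95), blood markers (2.071 to 2.333 and 2.095 to 2.405), endothelial markers (0.658 to 0.832 and 0.681 to 0.839) and cartilage markers (29.9 to 35.4 and 34.0 to 37.7) overlapped between the arms. Of the defining markers of other cell types, KRT19, KRT7 and HBB were at 0 counts in every library.

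Sequence upstream of the transcription start is shown for the members whose RNA rose and that have 1 entry in the RefSeq promoter table (GRCh38.p14), SOX2, SOX4, SOX12 and SOX5, beside SOX13, whose RNA did not pass the test. Each line gives the 250 bases before the start, 5′ to 3′ on the gene's strand, and 7 of the 10 members had an entry in the table. Capitals mark 3 motifs searched on both strands: the CCAAT box (CCAAT, or ATTGG on the other strand), the GC box (GGGCGG or CCGCCC) and a core of the SOX recognition sequence (AACAAT or ATTGTT).
SOX2, chr3:181711675-181711924, plus strand: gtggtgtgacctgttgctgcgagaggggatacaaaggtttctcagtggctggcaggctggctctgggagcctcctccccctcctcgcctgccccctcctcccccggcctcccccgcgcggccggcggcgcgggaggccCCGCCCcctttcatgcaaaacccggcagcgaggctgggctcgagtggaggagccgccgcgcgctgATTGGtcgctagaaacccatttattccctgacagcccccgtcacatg
SOX4, chr6:21593501-21593750, plus strand: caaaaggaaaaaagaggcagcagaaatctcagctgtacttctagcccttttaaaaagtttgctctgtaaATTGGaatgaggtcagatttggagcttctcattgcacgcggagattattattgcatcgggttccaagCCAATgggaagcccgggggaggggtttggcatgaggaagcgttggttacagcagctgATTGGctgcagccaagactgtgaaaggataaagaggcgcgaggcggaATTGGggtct
SOX12, chr20:325302-325551, plus strand: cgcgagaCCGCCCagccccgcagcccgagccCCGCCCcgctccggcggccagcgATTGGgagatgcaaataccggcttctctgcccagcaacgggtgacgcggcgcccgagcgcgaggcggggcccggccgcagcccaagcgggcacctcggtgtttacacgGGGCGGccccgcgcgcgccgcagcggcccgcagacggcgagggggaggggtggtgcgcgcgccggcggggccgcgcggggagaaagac
SOX5, chr12:24562492-24562741, minus strand: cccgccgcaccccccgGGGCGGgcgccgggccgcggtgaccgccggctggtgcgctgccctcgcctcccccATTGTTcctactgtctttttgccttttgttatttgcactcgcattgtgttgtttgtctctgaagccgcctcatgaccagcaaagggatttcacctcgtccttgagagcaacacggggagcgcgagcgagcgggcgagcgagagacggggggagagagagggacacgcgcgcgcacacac
SOX13, chr1:204072865-204073114, plus strand: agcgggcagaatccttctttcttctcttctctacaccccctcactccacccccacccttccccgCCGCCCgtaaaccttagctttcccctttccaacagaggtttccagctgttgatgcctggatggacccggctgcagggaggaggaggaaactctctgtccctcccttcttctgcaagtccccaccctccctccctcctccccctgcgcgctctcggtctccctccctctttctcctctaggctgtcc

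The SOX4 window held 4 CCAAT boxes, and those of SOX2 and SOX12 held 1 each, against 0 in the windows of SOX5 and SOX13. SOX3, whose RNA also did not pass and whose window is not shown, had 1 CCAAT box and 1 GC box. At least 1 CCAAT box stood in 32.0% of the 35116 windows of the same length in the table. Of the windows shown, that of SOX12 held 3 GC boxes and those of SOX2, SOX5 and SOX13 held 1 each, while SOX4 had 0. At least 1 GC box stood in 42.6% of all windows. The SOX core was found once in the SOX5 window and in 8.98% of all windows. SOX6, whose RNA also did not pass, has several windows, which are not shown. The SOX core matched 0, 1, 0, 1 and 2 times in them, and the CCAAT box 0, 1, 1, 1 and 0 times. The SOX12 window was 79.2% G and C and the SOX4 window 48.8%, against a median of 58.0% over all windows. These matches describe the letters only.

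In RNA, 6 of the 9 tested members rose with STM2457 and 0 fell (edgeR quasi-likelihood test, adjusted p under 0.05 over 17807 genes). Over all genes tested, 47.8% were called, 26.2% higher and 21.6% lower. At an unadjusted p under 0.05, 6 members were higher and 1, SOX6, was lower, and DESeq2 also called 6 higher and 0 lower. The increases ran from a log2 fold change of 0.29 for SOX12 to 1.07 for SOX4, with a median over the 9 members of 0.33 against 0.0025 over all genes tested. TMM scaling underlies these values. When libraries were scaled to the spike-ins, the median of all genes moved by -0.20 on the log2 scale, 4 members (SOX2, SOX4, SOX9 and SOX18) stayed higher, and SOX6 was called lower. Over all 17807 genes, 2159 were higher and 8383 lower with that scaling. In bulk libraries, a change in the RNA per cell and a change in the number of cells that express a gene cannot be told apart.

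SOX4 (ENSG00000124766.6, chromosome 6), which promotes the survival and differentiation of progenitors, had the largest change of the 9 tested members in RNA. Its level was 241, 187, 222 and 184 CPM in STM2457 replicates 1 to 4, against 101, 96.9, 91.0 and 108 CPM in DMSO replicates 1 to 4. The lowest STM2457 library was well above the highest DMSO library, although the STM2457 libraries were spread more widely. The means were 208 ± 27.7 CPM with STM2457 and 99.2 ± 7.27 CPM with DMSO (SD, n = 4 each), a 2.1-fold increase (log2 fold change 1.07, SE 0.08, edgeR adjusted p = 2.52e-07).

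SOX12 (ENSG00000177732.8, chromosome 20), found in mouse studies to be the weakest activator of the SoxC group, rose less than SOX4. It was at 133, 117, 134 and 119 CPM with STM2457, against 95.5, 102, 105 and 108 CPM with DMSO. The arms did not overlap, and the gap between them was smaller than the spread within the STM2457 arm. The increase was 1.22-fold (log2 fold change 0.29, SE 0.05, edgeR adjusted p = 0.000326), and with spike-in scaling SOX12 no longer passed (log2 fold change 0.10, edgeR adjusted p = 0.165). SOX11 (ENSG00000176887.7, chromosome 2), the third SoxC gene, had 3, 2, 0 and 2 reads in the STM2457 libraries and 1, 1, 1 and 0 reads in the DMSO libraries, which is too few for a comparison.

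SOX2 (ENSG00000181449.4, chromosome 3), a pluripotency and neural progenitor factor, was at 16.5, 17.3, 17.7 and 16.6 CPM with STM2457, against 10.1, 10.2, 10.3 and 10.6 CPM with DMSO. Libraries of 1 arm lay close together and the arms were far apart. SOX2 rose 1.65-fold (log2 fold change 0.72, SE 0.05, edgeR adjusted p = 6.2e-08), and by 0.53 with spike-in scaling. SOX2 lies within the long non-coding gene SOX2-OT, which had at most 10 reads in any STM2457 library and at most 12 in any DMSO library. How the authors assigned reads where genes overlap is not given in the sources used here. SOX3 (ENSG00000134595.8, chromosome X), the X-linked SoxB1 gene, was low, with 45, 35, 29 and 50 reads in the STM2457 libraries and 44, 45, 38 and 25 in the DMSO libraries. The arms overlapped (log2 fold change 0.17, 95% interval -0.28 to 0.63, edgeR adjusted p = 0.527), and with spike-in scaling the sign turned (-0.03).

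SOX9 (ENSG00000125398.8, chromosome 17), the master regulator of cartilage, was at 19.7, 18.4, 18.4 and 17.5 CPM with STM2457, against 11.2, 11.6, 10.3 and 12.2 CPM with DMSO. All 4 STM2457 libraries were above all 4 DMSO libraries. The increase was 1.63-fold (log2 fold change 0.70, SE 0.06, edgeR adjusted p = 7.28e-07), close in size to that of SOX2. SOX18 (ENSG00000203883.7, chromosome 20), the endothelial member, had 248, 191, 189 and 163 reads with STM2457 and 123, 107, 91 and 130 reads with DMSO, or 5.03, 4.02, 4.44 and 3.50 CPM against 2.34, 2.14, 1.93 and 2.53 CPM. It rose 1.90-fold (log2 fold change 0.92, SE 0.12, edgeR adjusted p = 4.06e-05).

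**Figure D1:**
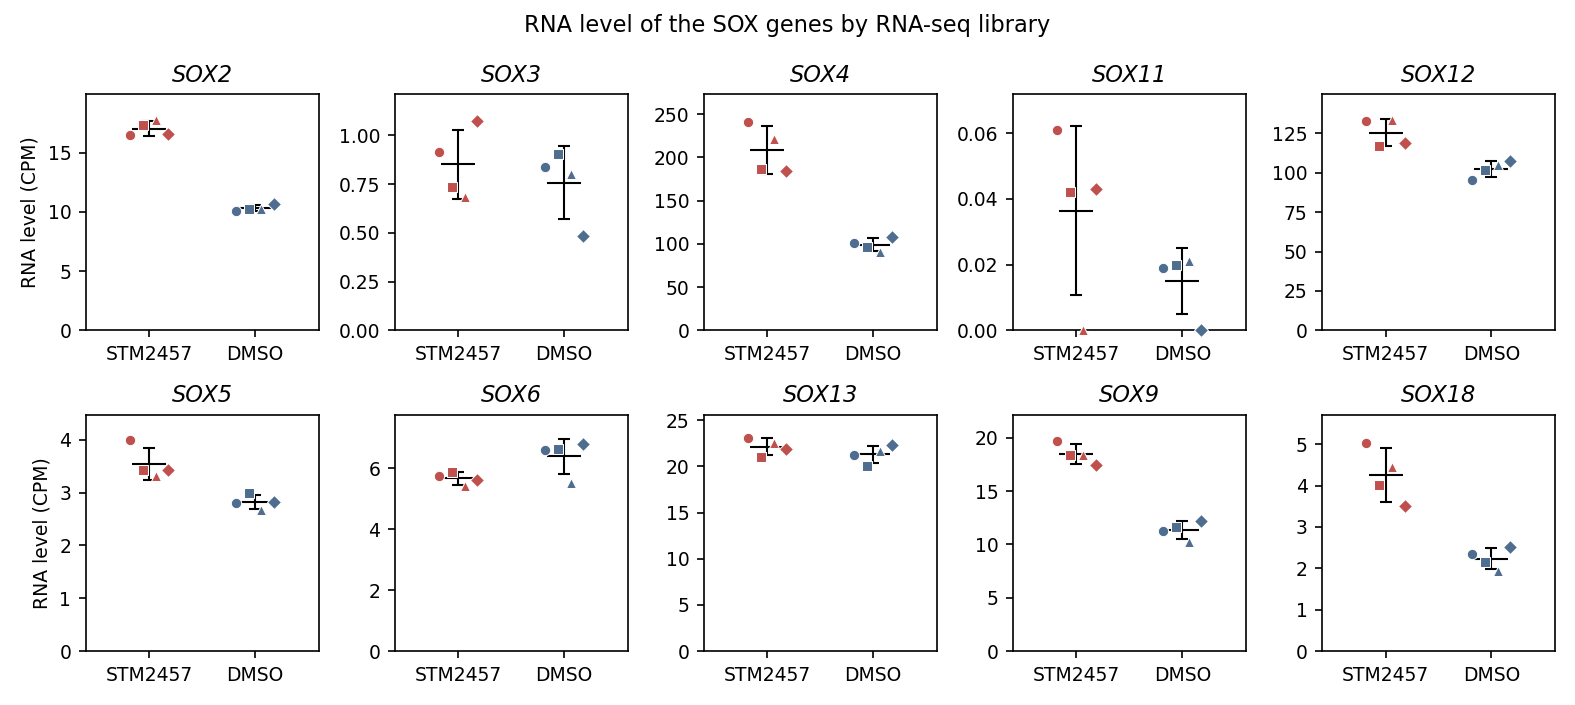
RNA level in CPM of each SOX gene in the 4 STM2457 and the 4 DMSO RNA-seq libraries. Symbols are replicates 1 to 4 (circle, square, triangle, diamond), bars the mean and SD, and each panel has its own axis from 0. The arms are apart for SOX2, SOX4, SOX5, SOX9, SOX12 and SOX18, and overlap for SOX3, SOX6, SOX11 and SOX13.

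The SoxD genes did not move as 1 group. SOX5 (ENSG00000134532.18, chromosome 12), which works with SOX6 beside SOX9 in cartilage, was at 4.00, 3.43, 3.31 and 3.43 CPM with STM2457, against 2.80, 2.99, 2.67 and 2.82 CPM with DMSO. It rose 1.26-fold (log2 fold change 0.33, SE 0.08, edgeR adjusted p = 0.00581). The SOX5 call was lost with spike-in scaling (log2 fold change 0.13, edgeR adjusted p = 0.284) and with replicates 3 and 4 alone (0.30, edgeR adjusted p = 0.0974).

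SOX6 (ENSG00000110693.18, chromosome 11) was at 5.75, 5.89, 5.40 and 5.62 CPM with STM2457, against 6.60, 6.63, 5.52 and 6.80 CPM with DMSO. DMSO replicate 3 lay within the range of the STM2457 libraries, and the other 3 DMSO libraries lay above it. The log2 fold change was -0.17 (95% interval -0.34 to -0.01, edgeR adjusted p = 0.0738). Without DMSO replicate 3 it was -0.24 and passed (edgeR adjusted p = 0.00977), as it did with spike-in scaling (-0.37, edgeR adjusted p = 0.00105). SOX13 (ENSG00000143842.15, chromosome 1) was at 23.1, 21.0, 22.5 and 21.9 CPM with STM2457, against 21.2, 20.1, 21.7 and 22.3 CPM with DMSO. These ranges overlapped over most of their width (log2 fold change 0.06, 95% interval -0.05 to 0.16, edgeR adjusted p = 0.357), and spike-in scaling turned the sign (-0.14).

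The libraries of all 6 members that rose were without overlap between the arms, and the arms of the other 3 tested members overlapped. Over all 17807 genes, 44.7% had arms without overlap, 24.9% with every STM2457 library above every DMSO library and 19.8% with the reverse. Leaving out any 1 of the 8 libraries kept the count at 6 members higher.

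Ribosome footprints were compared next, as the normalized signal of the deposited table. Of the 7 tested members, 2 rose (SOX4 and SOX9) and 1 fell (SOX5), and the other 4 did not pass (limma on log2(signal + 1), adjusted p under 0.05 over 10906 genes). Over all genes tested, 15.7% were called, 9.59% higher and 6.13% lower. The median log2 fold change of the 7 members was 0.60, against -0.02 over all genes. The edgeR test on recovered reads called the same numbers, 2 higher and 1 lower.

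SOX4 had the most footprints of the 8 members, with 600 and 530 reads in the STM2457 libraries and 453 and 274 reads in the DMSO libraries. Its signal was 2279 and 2069 with STM2457, against 1458 and 1321 with DMSO. Both STM2457 libraries were above both DMSO libraries, as in 25.7% of all genes tested, while 28.4% had both below and 54% in all had arms without overlap. The mean was 2174 ± 148 with STM2457 and 1389 ± 97.2 with DMSO (SD, n = 2 each), a 1.56-fold increase (log2 fold change 0.65, SE 0.11, limma adjusted p = 2.23e-05). The call held in all 8 alternatives tried for footprints, with log2 fold changes of 0.57 to 0.72.

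SOX9 footprints rose 1.63-fold, as its RNA did. The signal was 585 and 578 with STM2457, from 154 and 148 reads, against 389 and 328 with DMSO, from 121 and 68 reads. The log2 fold change was 0.70 (SE 0.18, limma adjusted p = 0.00399). Without DMSO replicate 2, which had the fewest reads, it was 0.58 and no longer passed (limma adjusted p = 0.0909).

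SOX5 footprints fell while SOX5 RNA counts rose. The signal was 19.0 and 42.9 with STM2457, against 83.7 and 91.6 with DMSO. These values rest on 5 and 11 reads with STM2457 and 26 and 19 reads with DMSO. The log2 fold change was -1.58 (SE 0.51, limma adjusted p = 0.0241). The SOX5 call was lost without STM2457 replicate 1 (log2 fold change -1.01, limma adjusted p = 0.236), without DMSO replicate 1 (-1.64, adjusted p = 0.0984) and without DMSO replicate 2 (-1.51, adjusted p = 0.184), and without STM2457 replicate 2 the log2 fold change was -2.15.

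Footprints of SOX2 and SOX18 were above the DMSO level in both STM2457 libraries but did not pass. SOX2 was at 228 and 148 with STM2457, against 122 and 120 with DMSO (log2 fold change 0.60, 95% interval -0.01 to 1.20, limma adjusted p = 0.192). SOX18 was at 91.2 and 102 with STM2457, against 51.5 and 53.0 with DMSO, from 24 and 26 reads against 16 and 11 (log2 fold change 0.87, 95% interval 0.03 to 1.71, limma adjusted p = 0.168). Their RNA had changed by 0.72 and 0.92, with narrower intervals.

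SOX12 footprints were at 399 and 305 with STM2457, against 534 and 381 with DMSO. The arms overlapped, and the estimate was below 0 (log2 fold change -0.37, 95% interval -0.77 to 0.03, limma adjusted p = 0.228), whereas SOX12 RNA rose. SOX13 footprints were at 289 and 242 with STM2457, against 245 and 207 with DMSO (log2 fold change 0.23, 95% interval -0.25 to 0.71, limma adjusted p = 0.589). SOX6 had 7 and 6 footprint reads with STM2457 and 19 and 7 with DMSO, a mean of 9.75 per library, which is just under the minimum of 10 set for testing. The next lowest member, SOX5, had a mean of 15.2 and was tested.

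**Figure D2:**
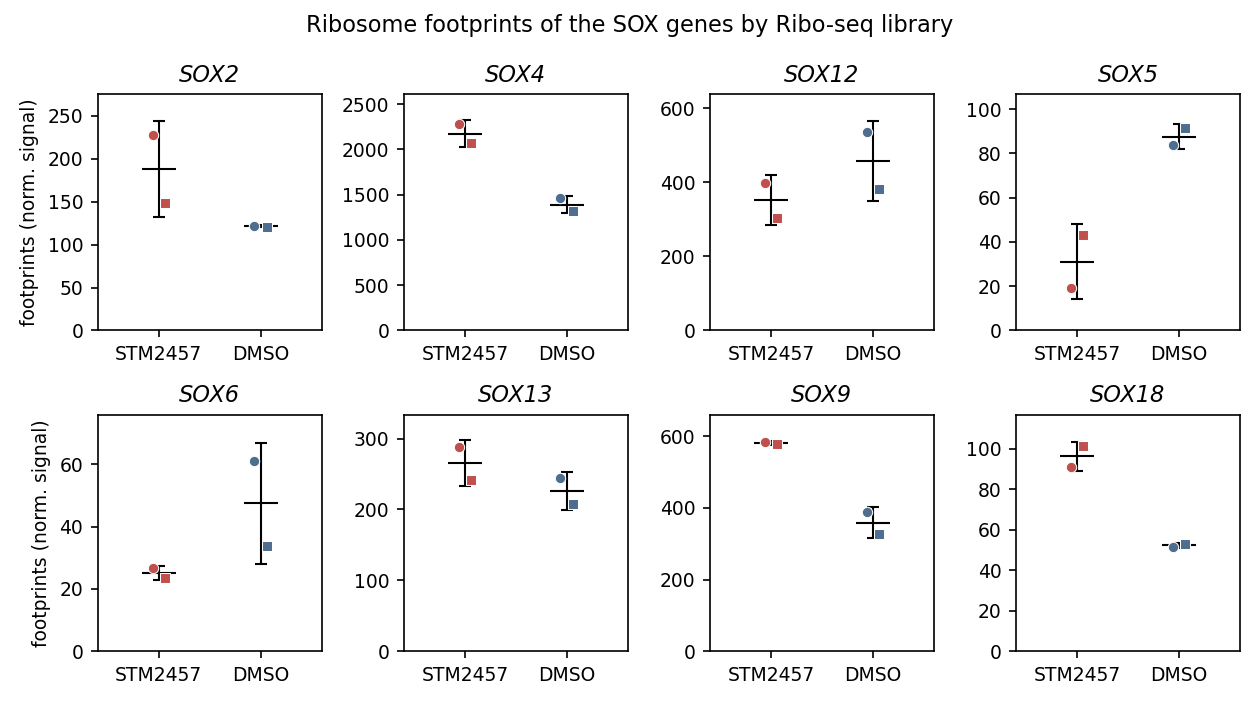
Normalized footprint signal of the 8 SOX genes of the deposited table in the 2 STM2457 and the 2 DMSO Ribo-seq libraries (circle, replicate 1, and square, replicate 2). Bars are the mean and SD, and each panel has its own axis from 0. SOX4, SOX9, SOX2 and SOX18 are higher with STM2457 in both libraries, SOX5 and SOX6 are lower, and SOX12 and SOX13 overlap.

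Translational efficiency is the footprint signal over the RNA signal of the table. Gene length cancels in this ratio only if both signals cover the same part of a gene, which is not given in the sources used here, so the ranks of genes below describe the table's ratios. From the means of each arm, the efficiency of SOX9 was 3.41 with STM2457 and 3.35 with DMSO, and that of SOX4 was 2.63 with STM2457 and 3.45 with DMSO, against a median of 1.04 over the 10906 genes kept in either arm. SOX9 stood at percentile 98.9 in both arms and SOX4 at percentile 97.2 with STM2457 and 99.0 with DMSO, so both were among the genes with the highest such ratios. SOX5 was near the median with STM2457, at 1.07 (percentile 52.4), and high with DMSO, at 3.04 (percentile 98.4). SOX18 (1.53 with STM2457 and 1.54 with DMSO) and SOX2 (1.28 and 1.29) were above the median in both arms. SOX12 was below it, at 0.583 with STM2457 and 0.926 with DMSO, and SOX13 was at 1.08 with STM2457 and 0.882 with DMSO.

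No member passed the test of efficiency, with 0 of 7 higher and 0 of 7 lower (limma interaction with a weight per assay). Over all genes tested, 1.04% were called, 0.229% higher and 0.807% lower. At an unadjusted p under 0.05, 0 members were higher and 1, SOX5, was lower. The edgeR interaction called 1 member lower, again SOX5. That fit called more of the 10906 genes than the weighted one, 124 higher and 301 lower.

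Ratios of footprint to RNA signal were taken in same-numbered libraries, although a shared number was not taken as a pair. They leave out RNA-seq replicates 3 and 4, whereas the log2 efficiency changes beside them use all RNA-seq libraries. For SOX5 the ratio was 0.541 and 1.254 with STM2457, against 3.08 and 2.75 with DMSO. Both STM2457 ratios were far below both DMSO ratios. The share of all genes with such ratios apart between the arms was not computed, here or for the members below. In footprint signal alone, 54% of all genes tested had arms without overlap. The log2 efficiency change of SOX5 was -1.56 (95% interval -2.86 to -0.26, limma adjusted p = 0.381). It passed with 1 shared spread for both assays (limma adjusted p = 0.0314) and with the edgeR interaction (-1.78, edgeR adjusted p = 0.0122), and over the 18 alternatives the adjusted p ran from 0.0122 to 0.87. Without STM2457 Ribo-seq replicate 1 the change was -0.99, and without STM2457 Ribo-seq replicate 2 it was -2.13. The RNA signal of SOX5 in the table was 28.9 ± 6.82 with STM2457 and 28.8 ± 2.96 with DMSO (SD, n = 4), a log2 change of -0.02 with no increase, unlike the whole-gene counts.

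SOX4 ratios were 2.288 and 2.758 with STM2457, against 4.08 and 3.49 with DMSO. Both STM2457 ratios were the lower ones, but the interval of the change covered 0 (log2 efficiency change -0.39, 95% interval -1.20 to 0.43, limma adjusted p = 0.874). SOX12 ratios were 0.582 and 0.571 with STM2457, against 1.37 and 0.782 with DMSO, and the DMSO libraries differed more from each other than the second of them did from STM2457 (log2 efficiency change -0.66, 95% interval -1.52 to 0.20, limma adjusted p = 0.683). With RNA-seq replicates 1 and 2 alone, as in the ratios, the log2 efficiency change was larger. It was -0.58 for SOX4 (limma adjusted p = 0.434) and -0.84 for SOX12 (limma adjusted p = 0.323). The smallest adjusted p over the alternatives was 0.105 for SOX12 and 0.239 for SOX4.

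SOX9, SOX18 and SOX2 had estimates near 0. SOX9 ratios were 3.15 and 3.39 with STM2457, against 3.45 and 3.17 with DMSO, and the arms overlapped (log2 efficiency change 0.03, 95% interval -0.57 to 0.64). SOX18 (0.01, 95% interval -1.15 to 1.17) and SOX2 (-0.04, 95% interval -0.61 to 0.53) also had intervals on both sides of 0, wider for SOX18 than for SOX2. SOX13 was the only tested member with both STM2457 ratios above both DMSO ratios, at 1.17 and 1.04 against 0.948 and 0.83 (log2 efficiency change 0.30, 95% interval -0.14 to 0.74, limma adjusted p = 0.748).

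**Figure D3:**
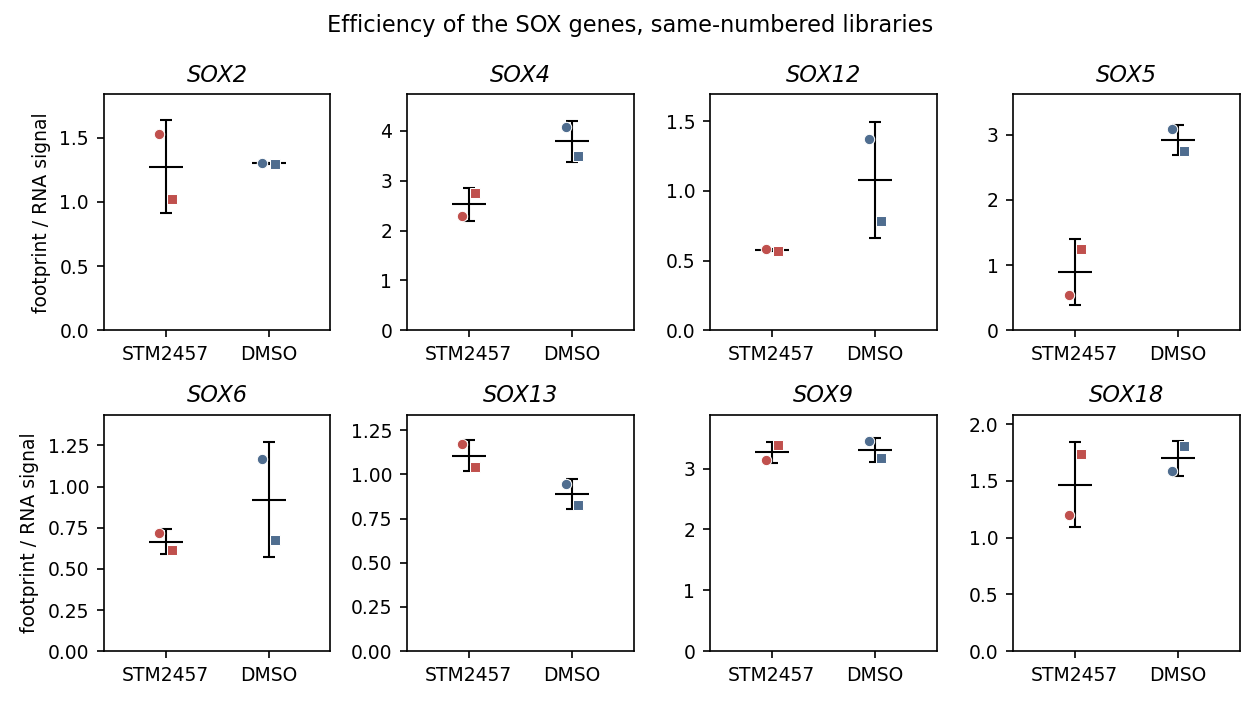
Footprint signal over RNA signal of same-numbered libraries for the 8 SOX genes of the deposited table, in 2 STM2457 and 2 DMSO libraries (circle, replicate 1, and square, replicate 2), with mean and SD. SOX5 is at 0.541 and 1.254 with STM2457 and at 3.08 and 2.75 with DMSO, whereas the arms of SOX9 overlap.

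The authors' deposited table gives efficiencies of its own, from the mean footprint signal and a mean RNA signal that equals the mean of replicates 1 to 3, without replicate 4, for all 12224 genes in both arms. In the authors' deposited table the log2 change of efficiency was -1.60 for SOX5, -0.78 for SOX12, -0.74 for SOX6, -0.57 for SOX4, -0.24 for SOX18, -0.07 for SOX9, -0.06 for SOX2 and 0.28 for SOX13, with no p-value.

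**Figure D4:**
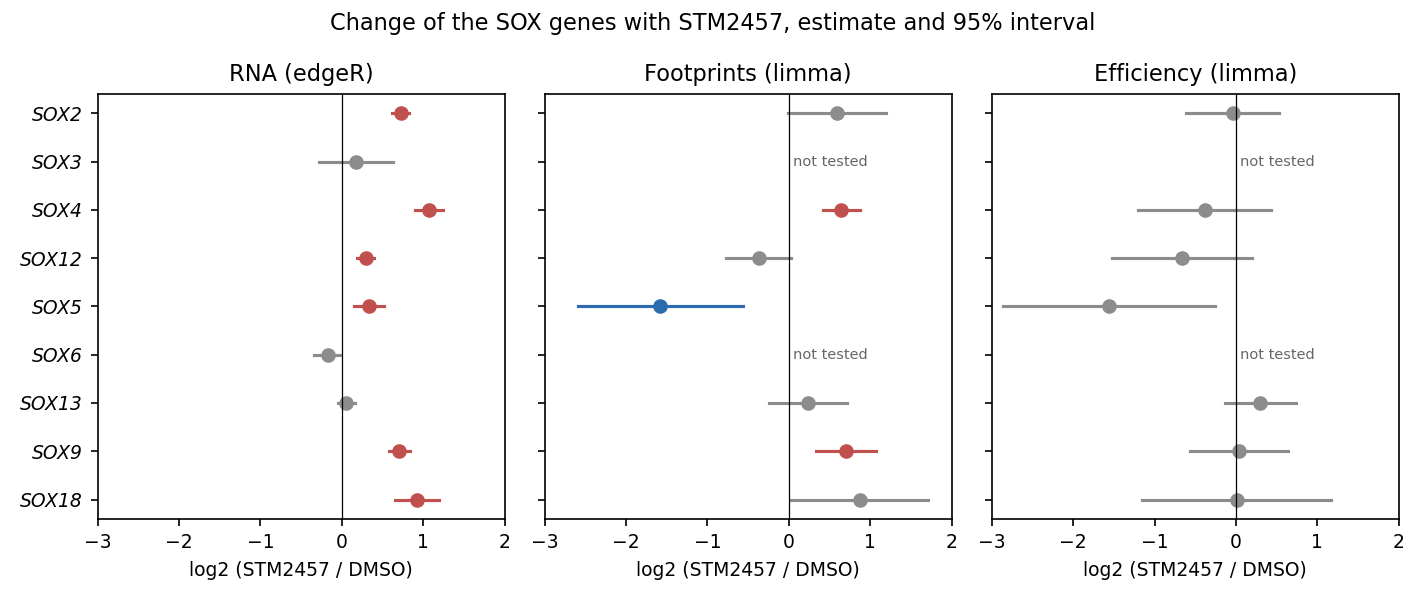
Log2 change with STM2457 over DMSO of each SOX gene in RNA (left), footprints (middle) and efficiency (right), with the 95% interval as a line. Red marks genes called higher, blue genes called lower and grey genes that did not pass. In RNA 6 genes are red, and in efficiency all 7 tested genes are grey. Each of these 7 has a narrower interval in RNA than in efficiency.

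Other genes of the SOX pathway were read from the same fits. Beside the counts of each list below stand the shares over all genes tested. These were 26.2% higher and 21.6% lower in RNA, and 9.59% higher and 6.13% lower in footprints. In efficiency they were 0.229% higher and 0.807% lower. With spike-in scaling, 2159 of the 17807 genes tested in RNA were higher and 8383 lower. The spike-in counts of each list below stand beside those numbers, not beside the shares with TMM. Of 9 further SOX genes, 4 passed the RNA filter and 3 rose, while 0 fell (0 also with DESeq2 and at an unadjusted p under 0.05). SOX7, a SoxF gene like SOX18, was at 11.6 ± 0.403 CPM with STM2457 and 5.66 ± 0.390 CPM with DMSO (SD, n = 4; log2 fold change 1.03, edgeR adjusted p = 3.08e-08). SOX21, a SoxB2 gene, rose by 0.44 and SOX8, a SoxE gene like SOX9, by 0.39, and SOX30 had a log2 fold change of 0.30 that did not pass. With spike-in scaling 2 of the 4 were higher. SOX1, SOX10, SOX14, SOX15 and SOX17 had at most 4 reads in any STM2457 library and at most 9 in any DMSO library. SOX8 was the only one of them with enough footprints for a test and did not pass (log2 fold change -0.15, limma adjusted p = 0.87).

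Among non-coding RNAs that neighbour SOX genes, SOX21-AS1, which starts beside SOX21 on the other strand, was at 3.82 ± 0.483 CPM with STM2457 and 8.84 ± 0.657 CPM with DMSO (SD, n = 4; log2 fold change -1.21, edgeR adjusted p = 2.32e-07). SOX1-OT fell by 0.67, and the third tested one, SOX9-AS1, had a log2 fold change of -0.14 that did not pass. Both were low. SOX1-OT had at most 20 reads in any STM2457 library and 33 in any DMSO library, and SOX9-AS1 at most 25 and 27. The library kit marks strand, per the labels, but whether the counting used it is not given, so reads of SOX21 and of SOX21-AS1 in any shared stretch cannot be told apart.

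Partner factors of SOX proteins rose in 6 and fell in 1 of 14 tested cases (median log2 fold change 0.05). The changes with the smallest p were increases of the Hedgehog effectors GLI2 (0.67) and GLI3 (0.62) and of the POU factors POU3F1 (1.01) and POU3F2 (0.70). POU3F2 is a known partner of SOX2 and SOX11 in neural cells. With spike-in scaling 4 partners were higher and 6 lower. In footprints 1 of 13 partners passed, OLIG2 with a log2 fold change of 0.72 (limma adjusted p = 0.0471), and in efficiency 0 of 13 passed (0 with edgeR, and 1 lower at an unadjusted p under 0.05).

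Of 10 tested targets of SOX9, SOX5 and SOX6, mostly cartilage genes beside the testis target AMH, 0 were higher and 0 lower in RNA with edgeR and with DESeq2 (1 lower at an unadjusted p under 0.05 in each). The smallest p were those of MATN3 (log2 fold change -0.31), COL2A1 (-0.11), COMP (-0.27) and COL11A2 (0.45). COL2A1, the collagen of cartilage, was at 31.8 ± 2.3 CPM with STM2457 and 34.4 ± 1.6 CPM with DMSO (SD, n = 4). With spike-in scaling 5 of the 10 were lower and 0 higher.

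Of 11 tested targets of SOX2, SOX4 and SOX11, 1 rose (MEX3A, an RNA-binding protein, 0.29) and 2 fell (STMN1, a microtubule regulator, -0.09, and TEAD2, a Hippo pathway factor, -0.13), and NES, a neural progenitor filament, was at -0.19 without passing. DESeq2 called 1 higher and 4 lower, and with spike-in scaling 0 were higher and 6 lower. In footprints 2 of 8 fell, DBN1 (-0.51) and MEX3A (-1.01). Of 3 tested SOX18 targets 2 rose in RNA, NR2F2 (1.08), a vein and lymphatic regulator, and EGFL7 (0.14), and PROX1 was at 0.0028. NR2F2 also rose in footprints, with a signal of 2058 ± 21.1 with STM2457 and 1069 ± 53.6 with DMSO (SD, n = 2; log2 fold change 0.95, limma adjusted p = 1.05e-08). DESeq2 called 1 of the 3 higher, and with spike-in scaling 1 was higher and 1 lower.

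Among relatives that carry an HMG box but are not SOX genes, 5 rose and 2 fell of 17 tested (median log2 fold change 0.0016). The share that rose was close to the 26.2% over all genes. UBTF (0.30), HMGXB4 (0.28), HBP1 (0.25) and HMGXB3 (0.10) had the smallest p. With spike-in scaling 0 were higher and 12 lower. Of the TCF/LEF factors and β-catenin, 1 of 5 fell, TCF7 (-0.19), and LEF1 (0.07), TCF7L2 (0.08) and CTNNB1 (-0.05) did not pass. With DESeq2 0 of the 5 were higher and 2 lower, and the same counts came from spike-in scaling.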

How the data were processed

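Poly(A) RNA-seq of 8 libraries and Ribo-seq of 4 libraries were compared between STM2457 and DMSO. The RNA-seq files hold raw counts per gene as deposited. Per the submitters' processing notes, STAR 2.7.3a, UMI-tools 1.1.2, Subread 2.0.3, featureCounts and DESeq2 are named among the tools and GRCh38.p12 as the build, and the step each was used for is not given in the sources used here. The deposited table holds a normalized signal per gene and library, the authors' mean signals, their efficiency ratio per arm and its log2 change. Each footprint signal was a multiple of a fixed step per library, the value of 1 read, with 100% of values within 0.1 of a whole read, so the reads were recovered. The part of each gene that the table counts is not given in the sources used here.

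RNA counts were tested with edgeR 4.0.16 in R 4.3.3 (TMM, filterByExpr, quasi-likelihood test, spike-ins left out of tests). CPM used TMM-scaled library sizes, and the SE is the absolute log2 fold change over the square root of F. Footprints were tested with limma 3.58.1 on log2(signal + 1), for genes with a mean of at least 10 reads per library. For efficiency, limma tested an assay-by-treatment interaction with a weight per assay, on the table's RNA and footprint signals. Fold changes of both are on the log2(signal + 1) scale. Adjusted p is Benjamini-Hochberg over all genes tested, with calls under 0.05. DESeq2 1.42.0 was an alternative. The edgeR test on recovered footprint reads called 1112 genes higher and 607 lower. The fits were tested on simulated data, with the same spread setting for every gene of an assay, no batch, and increases only, in few genes. There the RNA and footprint fits kept false calls under the nominal 0.05. All 3 efficiency fits exceeded it, the weighted one least and the one with 1 shared spread most. The real data differ in these settings, so the simulation does not give their rate of false calls.

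Members and lists were chosen with earlier results of these data known. All 10 members are named, and from each list up to 4 genes with the smallest p. Symbols were matched through Ensembl identifiers for 60306 of 60662 genes. Libraries of 1 arm and assay differed beyond sampling noise, with a chi-square per degree of freedom of at least 2.58 for RNA-seq and 2.34 for Ribo-seq.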

Additional observations from a re-analysis of the deposited data

Results flagged for a closer look

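SOX6 RNA in DMSO replicate 3 was at 5.52 CPM, far from the other 3 DMSO libraries at 6.60 to 6.80 CPM, and was the 1 such library in 18 groups of 4 libraries examined over the members. Chance gives about 1 in 20 such groups.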

How the results depend on the processing

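RNA increases of SOX2, SOX4, SOX9 and SOX18 passed in all 15 RNA alternatives. With spike-in scaling 2159 genes were higher and 8383 lower and 1 member was lower, and SOX3 (-0.028) and SOX13 (-0.14) turned negative. SOX3 was also negative with replicates 1 and 2 alone (-0.087). With replicate number as a block, 5094 genes were higher and 4448 lower in RNA, 6 members were higher and 1 (SOX6, edgeR adjusted p = 0.0405) lower; the block changed no other call of a member. Deviations of same-numbered RNA libraries correlated at 0.08 to 0.23. STM2457 replicates 1, 3 and 4 did so best with another number, so the numbers were not taken as pairs. Across the arms, replicates 1 and 2 correlated positively with each other (0.11 to 0.23), as did replicates 3 and 4 (0.08 to 0.27). Every correlation between these sets was negative (-0.256 to -0.085). The main fit holds no term for these sets, and what the replicates of a set share was not tested. For the Ribo-seq libraries the same-number correlation was 0.0064. Leaving out single libraries gave 0 to 1 members lower in RNA. For footprints it gave 742 to 844 genes higher and 262 to 620 lower, with 1 to 2 members higher and 0 to 1 lower. For efficiency, 1 shared spread called 339 genes higher and 486 lower, and the edgeR interaction 124 and 301, each with 1 member lower, against 25 and 88; without a filter 15 were higher. Leaving out single libraries gave 7 to 27 higher and 30 to 102 lower. Efficiency changes near 0 turned sign: with RNA-seq replicates 1 and 2 alone SOX9 was at -0.015 and SOX18 at -0.22, and without single libraries SOX9 ran from -0.091 to 0.16, SOX18 from -0.12 to 0.11 and SOX2 from -0.35 to 0.27. The cause of these shifts was not tested. Footprint depth limits SOX5, SOX6 and SOX18.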
